A study of Mus musculus with 12 samples.

Results

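Dbp, Hlf, Nfil3 and Nr1d2 are genes of the circadian clock and its output, followed here through RNA sequencing of mouse aorta. They were taken by gene symbol, and all 4 were found, each listed once, among 3532 gene symbols that the files list once. They were chosen by their FPKM values and their differences between groups in these same libraries, so both are given as a description and carry no test. FPKM is a fragment count scaled by the length of the transcript and the depth of the library. All 4 passed the filter used for the tests across genes (at least 1 FPKM in at least 3 libraries), as did 1659 genes in all.

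The aortas came from 4 groups. HSAPN is labelled as a knockdown of APPL1 on a high-fat diet, where APPL1 is an adaptor protein that binds adiponectin receptors. HAPN and HFD are both labelled WT on the high-fat diet, and WT is labelled WT on a normal diet. The feeding lasted 12 weeks per the labels, and 60% of the calories of the high-fat diet came from fat. The labels do not say how HAPN differs from HFD, how the knockdown was made, the strain, sex and age of the mice, or the time of day at which aortas were taken. The files of HFD replicates 1 and 2 hold identical values and were counted as 1 library, named HFD replicate 1 below, which leaves 3 HSAPN, 3 HAPN, 2 HFD and 3 WT libraries. Nothing in the labels says that replicates are separate animals, so SDs and p-values reflect how far these libraries differ, and that spread may be technical. Appl1 was not analysed here, so the knockdown is taken from the labels alone.

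The libraries are bulk tissue and differed in the levels of cell type markers. Summed FPKM of the 7 listed contractile smooth muscle markers analysed here ran from 280 to 487 in HSAPN, 269 to 522 in HAPN, 229 to 864 in HFD and 680 to 2810 in WT. Summed FPKM of 7 adipocyte markers ran from 15.3 to 87.4 in HSAPN, 5.48 to 254 in HAPN, 7.07 to 1310 in HFD and 94.8 to 872 in WT. Summed FPKM of 2 of the 6 listed fibroblast markers ran from 25.6 to 40.7 in HSAPN, 35.0 to 37.5 in HAPN, 36.4 to 90.8 in HFD and 66.2 to 72.5 in WT. The airway gene Bpifa1 ran from 27.9 to 1149 FPKM in HSAPN, 2.81 to 3848 in HAPN, 5.84 to 6438 in HFD and 238 to 10730 in WT. None of the 5 listed endothelial markers was analysed here. In such tissue, fewer cells of a type and less RNA per cell cannot be told apart. Read as FPKM, the values imply 15610000 to 17840000 reads per library, and the 4 genes then rest on about 98 to 2759 reads each per library.

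In the mammalian clock, the activators BMAL1 and CLOCK drive transcription from E-box elements, and their targets include repressors that shut them off again each day. Dbp and Hlf encode transcription factors of the PAR bZIP family, which bind D-box elements and activate genes there. Nfil3 encodes a bZIP repressor that binds the same D-box elements and is known to cycle opposite to Dbp. Nr1d2 encodes REV-ERB beta, a nuclear receptor that represses genes with ROR elements, Nfil3 among its known targets. Transcripts of these genes change strongly over the day in most tissues, blood vessels included, so the hour of collection bears on their level. Its part in the values below was not tested, because no hour is given.

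Dbp, the PAR bZIP activator whose transcript follows the clock most directly, stood low in HAPN and HFD and higher in HSAPN and WT. Its levels were 12.5, 7.92 and 14.5 FPKM in the HSAPN libraries. They were 3.79, 2.36 and 2.39 FPKM in HAPN, 4.33 and 3.50 FPKM in HFD, and 18.1, 36.7 and 9.30 FPKM in WT. Every HSAPN and WT library lay above every HAPN and HFD library, while HSAPN and WT overlapped, as did HAPN and HFD. The share of tested genes with such a split across all 4 groups was not counted. Since the members were chosen by their differences between groups, nothing is read from it, here or for Nfil3 and Nr1d2 below. Dbp averaged 11.6 ± 3.38 FPKM in HSAPN, 2.85 ± 0.817 FPKM in HAPN, 3.91 ± 0.588 FPKM in HFD and 21.4 ± 14.0 FPKM in WT. These and later values after ± are SDs, over 3, 3, 2 and 3 libraries. From the highest mean down the order was thus WT, HSAPN, HFD and HAPN, with a step beyond the spread between HSAPN and HFD alone. WT was the widest group, with replicate 2 at about 1959 reads and replicate 3 at about 474. WT replicate 2 also had the highest sum of contractile markers, 2810 FPKM, and the most Bpifa1, 10730 FPKM, and their part in its Dbp level was not tested. Dbp lies on chromosome 7 at chr7:45705088-45710203 of GRCm38, plus strand. Of its 2993 exonic bases, 539 are also exonic in Sphk2 on the opposite strand, and since the strand setting of the counting is not given, reads from the 2 genes cannot be told apart there.

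Hlf, the other PAR bZIP gene of the set, did not share this pattern. Its levels were 3.45, 2.56 and 2.09 FPKM in HSAPN, 1.33, 2.75 and 2.37 FPKM in HAPN, 2.54 and 1.62 FPKM in HFD, and 2.20, 6.08 and 2.80 FPKM in WT. All 4 groups overlapped, and WT replicate 2 alone stood clear of the other libraries, as it did for Dbp. The means were 2.70 ± 0.690 FPKM in HSAPN, 2.15 ± 0.734 FPKM in HAPN, 2.08 ± 0.651 FPKM in HFD and 3.69 ± 2.09 FPKM in WT, and no neighbours in their order differed beyond their spread. Hlf was also the member with the lowest median level, 2.54 FPKM over the 11 libraries, against 7.92 FPKM for Dbp, 5.37 FPKM for Nfil3 and 21.1 FPKM for Nr1d2. The gene lies on chromosome 11, at chr11:90336536-90390895 on the minus strand.

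Nfil3, the D-box repressor, ran the other way. Its levels were 3.44, 2.76 and 3.18 FPKM in HSAPN, 7.79, 7.81 and 8.62 FPKM in HAPN, 8.81 and 5.37 FPKM in HFD, and 3.72, 3.81 and 5.84 FPKM in WT. HSAPN was the lowest group, with all its libraries below all others, and the 3 HAPN libraries lay close together at the high end. HFD bridged the groups, since its replicate 1 was the highest library of all and its replicate 3 lay below WT replicate 3. The means were 3.13 ± 0.344 FPKM in HSAPN, 8.08 ± 0.474 FPKM in HAPN, 7.09 ± 2.43 FPKM in HFD and 4.46 ± 1.20 FPKM in WT. From the highest mean down the order was HAPN, HFD, WT and HSAPN. HAPN and HFD overlapped and so did HFD and WT, whereas HSAPN and WT were separated by a narrow step, with 3.44 FPKM in the highest HSAPN library and 3.72 FPKM in the lowest WT library. Nfil3 rested on about 98 to 283 reads per library. It lies on chromosome 13, at chr13:52967209-52981073 on the minus strand.

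Nr1d2, the REV-ERB gene, had the highest mean FPKM of the 4 in every group, although Dbp exceeded it in WT replicate 2. Its levels were 28.9, 21.4 and 26.8 FPKM in HSAPN, 16.2, 11.7 and 10.3 FPKM in HAPN, 16.1 and 11.5 FPKM in HFD, and 24.4, 24.7 and 21.1 FPKM in WT. As for Dbp, every HSAPN and WT library lay above every HAPN and HFD library, here with 21.1 FPKM in the lowest WT library and 16.2 FPKM in the highest HAPN library. The means were 25.7 ± 3.84 FPKM in HSAPN, 12.8 ± 3.10 FPKM in HAPN, 13.8 ± 3.26 FPKM in HFD and 23.4 ± 2.00 FPKM in WT. From the highest mean down the order was HSAPN, WT, HFD and HAPN. HSAPN and WT overlapped, and HAPN and HFD overlapped. Nr1d2 lies on chromosome 14, at chr14:18204054-18239127 on the minus strand, and shares no exonic base with another gene of the annotation, as holds for Hlf and Nfil3.

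**Figure D1:**
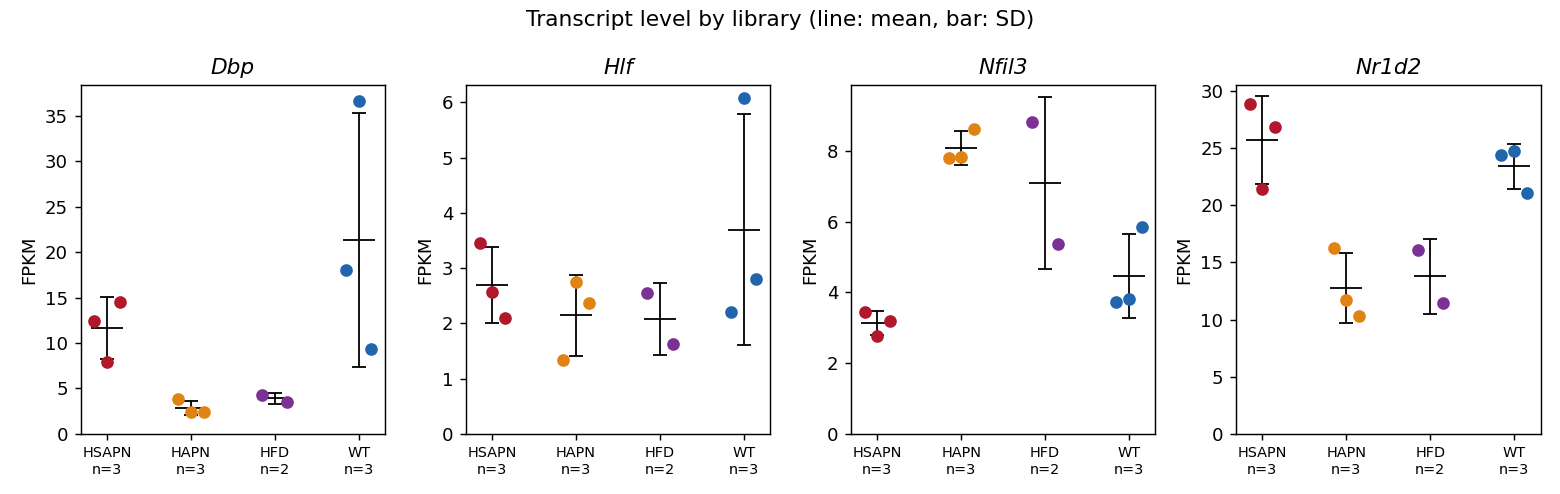
Transcript level in FPKM of Dbp, Hlf, Nfil3 and Nr1d2 in each library of HSAPN, HAPN, HFD and WT, with a line at the group mean and a bar of 1 SD; the identical HFD files are drawn once. Dbp and Nr1d2 are low in HAPN and HFD, Nfil3 is lowest in HSAPN, and the groups overlap for Hlf.

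The start regions of these genes were read for clock elements, since the levels of Dbp and Nr1d2 ran together and that of Nfil3 opposite to them. Sequences are those of RefSeq for GRCm38.p6, in which each member matched 1 start. Searched on both strands, from 250 bases before the start to 50 after it, were the E-box CACGTG, the related CACGTT, the D-boxes TTATGTAA and TTACGTAA, the ROR element half-site AGGTCA, its longer form TAGGTCA, which contains it, the cAMP response element TGACGTCA and the general promoter element CCAAT. Nfil3 held TAGGTCA on the strand opposite to the gene, 12 to 6 bases before its RefSeq start. Nr1d2 held AGGTCA on its own strand, 77 to 72 bases before the start. Hlf held TGACGTCA at 9 to 2 bases before the start. Dbp held CCAAT on the opposite strand at positions -222 to -218 and 28 to 32, counted from the start, and none of the other searched letters. The GENCODE start of Dbp lies 159 bases upstream of its RefSeq start, so only 91 of the searched bases lie before both. CCAAT was also found once on the opposite strand in Nfil3 and in Nr1d2. No E-box or D-box letters were found in any of the 4 windows. Over all 32851 RefSeq start regions, the same window holds AGGTCA in 16.3%, TAGGTCA in 2.61%, TGACGTCA in 1.79%, CACGTG in 7.15%, CACGTT in 4.68%, a D-box in 1.06% and CCAAT in 37.4%. These are matches of letters in a short window, and no binding was measured. Shown for the opposed pair Nr1d2 and Nfil3, and for Hlf, are the ROR or cAMP response element matches in capitals, each sequence 5′ to 3′ on the gene's own strand. The Nr1d2 stretch is chr14:18239128-18239356, before both the RefSeq and the GENCODE start. The Nfil3 stretch is chr13:52981033-52981062, which GENCODE, with a start 34 bases further upstream, counts as transcribed. The Hlf stretch is chr11:90390908-90390937.
Nr1d2: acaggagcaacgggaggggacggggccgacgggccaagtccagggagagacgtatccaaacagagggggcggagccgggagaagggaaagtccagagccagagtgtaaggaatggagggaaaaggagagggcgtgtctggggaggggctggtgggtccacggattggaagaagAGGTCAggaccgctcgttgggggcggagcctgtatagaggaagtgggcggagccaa
Nfil3: gcgctcggaacTGACCTActaacacacatc
Hlf: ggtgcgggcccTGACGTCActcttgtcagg

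Set against each other within a library, the genes gave ratios of FPKM that do not depend on the scaling of the library. The ratios of Nr1d2 and of Dbp to Nfil3 set HSAPN and WT apart from HAPN and HFD, for genes chosen on such differences. The ratio of Nr1d2 to Nfil3 was 8.39, 7.77 and 8.43 in HSAPN, 2.08, 1.5 and 1.20 in HAPN, 1.83 and 2.14 in HFD, and 6.55, 6.49 and 3.62 in WT. HSAPN thus stood above all other libraries, WT next, and HAPN and HFD together below. The ratio of Dbp to Nfil3 was 3.63, 2.87 and 4.57 in HSAPN, 0.487, 0.302 and 0.277 in HAPN, 0.491 and 0.651 in HFD, and 4.85, 9.63 and 1.59 in WT. Nfil3 exceeded Dbp in every HAPN and HFD library, and Dbp exceeded Nfil3 in every HSAPN and WT library. WT replicate 3 was the WT library closest to HAPN and HFD in both ratios. It differed from the other WT libraries in erythrocyte marker RNA too. Summed FPKM of 4 erythrocyte markers ran from 3150 to 4860 in HSAPN, from 1300 to 3890 in HAPN and from 2190 to 3820 in HFD, and it was 401, 399 and 3190 in WT replicates 1, 2 and 3. Any part of blood in the clock gene levels was not tested.

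**Figure D2:**
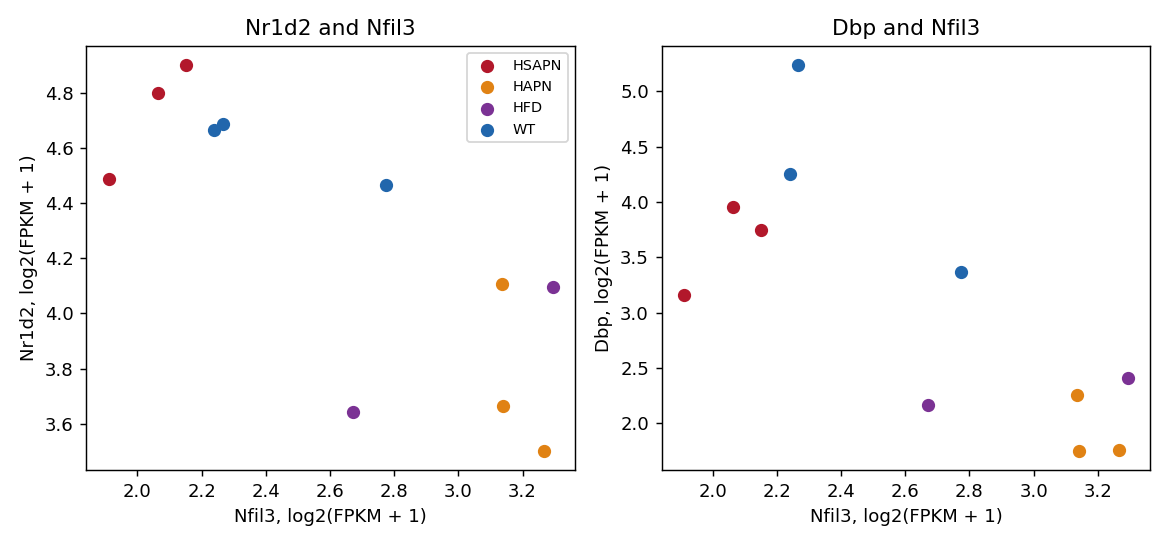
Nr1d2 (left) and Dbp (right) against Nfil3, both axes in log2(FPKM + 1), each point 1 library of HSAPN, HAPN, HFD or WT. HSAPN and WT libraries lie higher on both vertical axes than HAPN and HFD libraries, and mostly to their left, but WT replicate 3 (5.84 FPKM of Nfil3) lies to the right of HFD replicate 3 (5.37 FPKM).

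Across the 11 libraries Pearson r of log2(FPKM + 1), given as a description, was 0.877 for Dbp and Nr1d2 (Spearman rho 0.873), -0.786 for Nfil3 and Nr1d2 (-0.764) and -0.759 for Dbp and Nfil3 (-0.636). The libraries of a group share their treatment, and these values rest largely on the groups. For deviations from the group means, r was 0.601 for Dbp and Nr1d2, 0.208 for Nfil3 and Nr1d2, and -0.336 for Dbp and Nfil3. Within HAPN and within WT, the library with the highest Nfil3 had the lowest Nr1d2, whereas within HSAPN and within HFD the library with the highest Nfil3 also had the highest Nr1d2. Hlf had r of 0.623 with Dbp, which was 0.267 without WT replicate 2. Of the sum of squares of log2(FPKM + 1), 84.8% lay between groups for Nfil3, 83.1% for Nr1d2 and 82.0% for Dbp. The median share over the 1659 tested genes was 42.7%, and Hlf lay below it. From the highest share down, Nfil3 was at place 26, Nr1d2 at 35, Dbp at 43 and Hlf at 1189. Since the members were chosen by their differences between groups, nothing is read from these shares or places.

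APPL1 knockdown with HSAPN was set against HAPN, the group whose title shares the letters APN and whose genotype is labelled WT. In HSAPN, Dbp averaged 4.09 times and Nr1d2 2.02 times the HAPN mean, and Nfil3 averaged 0.387 times. On the log2(FPKM + 1) scale, used for every difference from here on and smaller than the fold of FPKM for low genes, the differences were 1.70 (SE 0.422) for Dbp, 0.97 (SE 0.211) for Nr1d2, -1.14 (SE 0.215) for Nfil3 and 0.25 (SE 0.322) for Hlf. SEs come from the limma fit across all tested genes. Dbp and Nr1d2 lay wholly above HAPN, where 9.95% of the tested genes did, and Nfil3 wholly below, where 7.53% did. The members were chosen with this contrast in view, so nothing is read from these counts. The median difference of all tested genes was 0.03 in this comparison.

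HSAPN was set against HFD as the second knockdown contrast, which shares the HSAPN libraries with the first. Dbp differed by 1.33 (SE 0.472), Nr1d2 by 0.86 (SE 0.236), Nfil3 by -0.94 (SE 0.240) and Hlf by 0.26 (SE 0.360). Dbp and Nr1d2 lay wholly above HFD, as did 5.61% of the tested genes, and Nfil3 wholly below, as did 14.2%. The table as a whole was lower in HSAPN by a median of -0.18, which median-ratio scaling moved to 0.01. The Nfil3 difference was -1.25 without HFD replicate 3 and -0.63 without HFD replicate 1, so its size rests on which HFD library is kept. HFD replicate 3 stood apart from the other libraries, with Gm23935 at 110585 of its 186492 summed FPKM, where every other library had mt-Co1 as its highest gene and sums of 76620 to 128635 FPKM. The part of this in the Nfil3 level was not tested.

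HAPN and HFD, both WT on the high-fat diet, did not separate in any of the 4 genes. The differences were -0.37 (SE 0.472) for Dbp, -0.11 (SE 0.236) for Nr1d2, 0.20 (SE 0.240) for Nfil3 and 0.02 (SE 0.360) for Hlf, and the libraries of the 2 groups overlapped for each. All tested genes were lower in HAPN by a median of -0.24, and median-ratio scaling moved that median to -0.01. Relative to it Nr1d2 changed sign, to 0.15 with that scaling, and Nfil3 reached 0.45. In this comparison, 6.51% of the tested genes lay wholly above HFD and 19.8% wholly below.

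The 3 high-fat groups were each set against the normal-diet libraries, which they share. In HAPN against WT, Dbp differed by -2.36 (SE 0.422), Nr1d2 by -0.85 (SE 0.211), Nfil3 by 0.75 (SE 0.215) and Hlf by -0.52 (SE 0.322). Mean Dbp in HAPN was 0.133 times the WT mean, and Nr1d2 was 0.545 times. Dbp and Nr1d2 lay wholly below WT, as did 20.4% of the tested genes, and Nfil3 wholly above, as did 7.11%. HFD against WT had the same signs, with Dbp at -1.99 (SE 0.472), Nr1d2 at -0.74 (SE 0.236), Nfil3 at 0.56 (SE 0.240) and Hlf at -0.54 (SE 0.360). There Dbp and Nr1d2 were wholly below WT, as were 7.17% of the tested genes, and Nfil3 overlapped, while 12.1% of the tested genes were wholly above. Nfil3 in HFD against WT was 0.87 without HFD replicate 3 and 0.25 without HFD replicate 1.

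HSAPN against WT gave the differences smallest in size of the 3 for Dbp, Nr1d2, Nfil3 and Hlf. Dbp differed by -0.66 (SE 0.422), Nr1d2 by 0.12 (SE 0.211), Nfil3 by -0.39 (SE 0.215) and Hlf by -0.27 (SE 0.322). Dbp, Nr1d2 and Hlf overlapped between HSAPN and WT. Nfil3 lay wholly below WT, as did 19.0% of the tested genes, and 10.3% lay wholly above. Overlap does not show that the 2 groups are alike. Dbp differed by -1.12 without WT replicate 3 and by -0.19 without WT replicate 2. Without WT replicate 2, Hlf turned to 0.07 in HSAPN against WT, and it was -0.18 in HAPN against WT and -0.20 in HFD against WT. The medians of all tested genes were -0.12 in HSAPN, -0.17 in HAPN and 0.07 in HFD, each against WT.

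**Figure D3:**
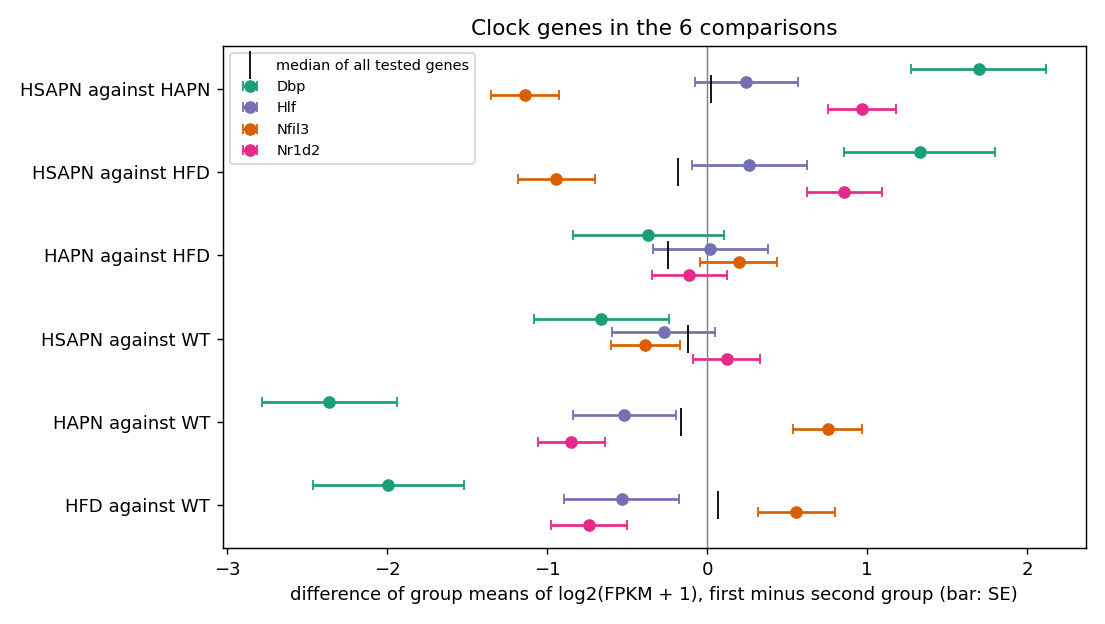
Differences of group means of log2(FPKM + 1) for Dbp, Hlf, Nfil3 and Nr1d2 in the 6 comparisons, first group minus second, with bars of 1 SE and a black tick at the median of the 1659 tested genes. Dbp and Nr1d2 are on the positive side and Nfil3 on the negative side for HSAPN against HAPN and HFD, and the sides are exchanged for HAPN and HFD against WT.

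Other genes of the clock and its output were taken from lists of 50 genes beside the members: core activators and repressors, ROR receptors, kinases and ligase subunits that set the period, output genes, PAR bZIP targets, and genes that glucocorticoid hormone raises. Of these, 10 were analysed here and 8 passed the filter, so most of the core loop is outside what these values show. Of the 8, 5 came from the glucocorticoid list, namely Fkbp5, Sgk1, Mt1, Pdk4 and Errfi1. The others were the output genes Lonrf3 and Cdkn1a and the PAR bZIP target Ppara. Counts over the 8 below are thus largely of glucocorticoid-responsive genes. The activator gene Arntl2 stayed under 1 FPKM in all libraries, at 0.511 to 0.746 FPKM in HSAPN, 0.385 to 0.549 in HAPN, 0.895 and 0.275 in HFD, and 0.402 to 0.904 in WT. The receptor gene Rorb was at most 0.152 FPKM. By limma with Benjamini-Hochberg adjustment, 0 of the 8 tested genes passed an adjusted p of 0.05 in any of the 6 comparisons. Of all tested genes, 0.121% passed in HSAPN against HAPN, 0.181% in HAPN against HFD and 0% in the other 4, where 67 genes in HSAPN against HFD, 360 in HSAPN against WT, 368 in HAPN against WT and 189 in HFD against WT had an unadjusted p under 0.05.

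In HSAPN against HAPN, 2 of the 8 were higher and 6 lower, with a median of -0.38 beside 0.03 for all tested genes. The nearest to the threshold was Mt1, a metallothionein gene raised by metals and glucocorticoid. It had 59.7, 32.0 and 63.7 FPKM in HSAPN, against 101, 83.9 and 76.6 FPKM in HAPN, which did not overlap (-0.79, SE 0.304, limma adjusted p = 0.557). Mt1 was also wholly below WT in HSAPN, with WT at 97.8, 105 and 70.2 FPKM (-0.84, SE 0.304, limma adjusted p = 0.169). Pdk4, a kinase that restrains pyruvate oxidation, differed by -1.18 (SE 0.864) and spread from 4.23 to 26.6 FPKM within HAPN. The glucocorticoid-responsive genes Fkbp5 and Sgk1 differed by 0.11 and 0.41 with overlapping groups, and Errfi1 by -0.39. HSAPN against HFD had 3 of 8 higher and 5 lower (median -0.08), and HAPN against HFD 6 higher and 2 lower (median 0.39).

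Against WT, 7 of the 8 were higher in HAPN (median 0.72), 7 in HFD (median 0.35) and 5 in HSAPN (median 0.45), with none past the threshold. Lonrf3, a ubiquitin ligase gene that cycles in many tissues, was wholly above WT in HAPN. It had 1.29, 2.59 and 1.82 FPKM in HAPN and 0.270, 0.293 and 1.07 FPKM in WT (0.93, SE 0.267, limma adjusted p = 0.132). Cdkn1a, the cell cycle inhibitor p21, had 46.8, 67.7 and 72.5 FPKM in HAPN and 19.1, 18.2 and 47.9 FPKM in WT, where WT replicate 3 lay within the HAPN range (1.23, SE 0.395, limma adjusted p = 0.154). Without WT replicate 3, both passed in HAPN against WT (limma adjusted p = 0.0329 for Lonrf3 and 0.0252 for Cdkn1a), as did Errfi1, a feedback inhibitor of EGF receptor signalling (0.0427), and Sgk1, a glucocorticoid-induced kinase, passed in HSAPN against WT (0.0381). Without that library, 10.9% of all tested genes passed in HAPN against WT and 10.1% in HSAPN against WT. With array weights, which give less weight to libraries far from their group, 2 of the 8 genes passed in HSAPN against WT and 3 in HAPN against WT, beside 23.8% and 31.9% of all tested genes. Ppara, a nuclear receptor gene controlled by PAR bZIP factors in mouse liver, differed by -0.20 (SE 0.360) in HSAPN against HAPN, where Dbp differed by 1.70, and its groups overlapped in all 6 comparisons. Ppara was low, at 0.238 to 2.01 FPKM, and was the only 1 of 7 listed PAR bZIP targets analysed here.

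Genes most like each member were taken by Pearson r over the 11 libraries among 1241 named genes, the 5 highest and the 5 lowest, with no test. Libraries of a group share their treatment, so these r rest in part on the groups. Dbp was followed most closely by Vdr, the vitamin D receptor gene (r = 0.904), Srek1ip1, which encodes a partner of a splicing factor (0.882), Gcat (0.834), Lefty1 (0.828) and Fam214a (0.823). Vdr had 2.02, 1.87 and 2.39 FPKM in HSAPN, 1.8, 1.59 and 1.48 in HAPN, 1.51 and 1.86 in HFD, and 3.41, 3.40 and 2.07 in WT. HSAPN lay above HFD narrowly, 1.87 against 1.86 FPKM in the nearest libraries, and among WT libraries Vdr was lowest in replicate 3, as Dbp was. Lowest for Dbp were Banp (-0.852), Erlin1 (-0.831), the lipid droplet coat gene Plin2 (-0.815), Ctrl (-0.812) and Tnfrsf25 (-0.806).

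Srek1ip1 was also the gene most like Nr1d2 (r = 0.843) and was second from the bottom for Nfil3 (-0.778). It had 6.28, 6.64 and 6.63 FPKM in HSAPN, 5.32, 4.78 and 4.53 in HAPN, 6.14 and 5.77 in HFD, and 7.31, 7.18 and 6.15 in WT, a narrower range than any member. Next for Nr1d2 were Ldlrad3 (0.757), the folate enzyme gene Aldh1l1 (0.739), Fam234b (0.725) and Fam214a (0.720). For deviations from the group means, r with Nr1d2 was 0.238 for Ldlrad3. It was 0.637 for Srek1ip1, 0.724 for Aldh1l1, 0.523 for Fam234b and 0.461 for Fam214a. At the other end were Prg2, the eosinophil major basic protein gene (-0.809), Banp (-0.793), Gadd45g (-0.750) and Begain (-0.734). By deviations from the group means these were weaker, at -0.309 for Prg2, -0.380 for Banp, -0.517 for Gadd45g and -0.383 for Begain. Prg2 had 0.676, 0.476 and 1.94 FPKM in HSAPN, 2.13, 4.42 and 2.66 in HAPN, 2.63 and 5.74 in HFD, and 0.341, 0.534 and 0.421 in WT, so every HSAPN and WT library lay below every HAPN and HFD library. The share of tested genes split in this way was not counted. Prg2 is transcribed in eosinophils, so these libraries also differed in a transcript of another cell type, whose part in the clock gene levels was not tested.

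Nfil3 was followed by Banp, which encodes a nuclear protein (r = 0.793), the inositol transporter gene Slc5a3 (0.777), Cluh (0.765), the hexosamine pathway gene Gfpt2 (0.762) and Ctrl (0.745). Banp had 4.16, 3.03 and 2.62 FPKM in HSAPN, 6.16, 8.26 and 7.89 in HAPN, 3.99 and 4.32 in HFD, and 2.36, 2.53 and 4.17 in WT. HAPN alone stood apart there, whereas Nfil3 was also high in HFD replicate 1. Opposite to Nfil3 were the histone gene Hist3h2ba (-0.869), Srek1ip1, n-R5s39 (-0.755), Ldlrad3 (-0.740) and the exon junction complex gene Magohb (-0.725). For deviations from the group means, r with Nfil3 changed sign for Ldlrad3, at 0.190. It was -0.837 for Hist3h2ba, -0.441 for Srek1ip1, -0.806 for n-R5s39 and -0.752 for Magohb.

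The genes most like Hlf were Mark1 (r = 0.872), Smarcd3, a chromatin remodelling subunit of muscle (0.865), the muscle ubiquitin ligase gene Fbxo32 (0.845), Igsf9 (0.844) and Mylk, the myosin light chain kinase of smooth muscle (0.833). All 5 were highest in WT replicate 2, the library with the most contractile marker RNA, and without it their r with Hlf ran from 0.510 to 0.654. Lowest for Hlf were Rasl11a (-0.804), the asparagine synthetase gene Asns (-0.768), Maob (-0.703), Cebpa (-0.609) and Swt1 (-0.580). Without WT replicate 2, only 1 of these 10 genes was still among the 10 most alike, against 5 for Dbp, 6 for Nfil3 and 8 for Nr1d2.

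**Figure D4:**
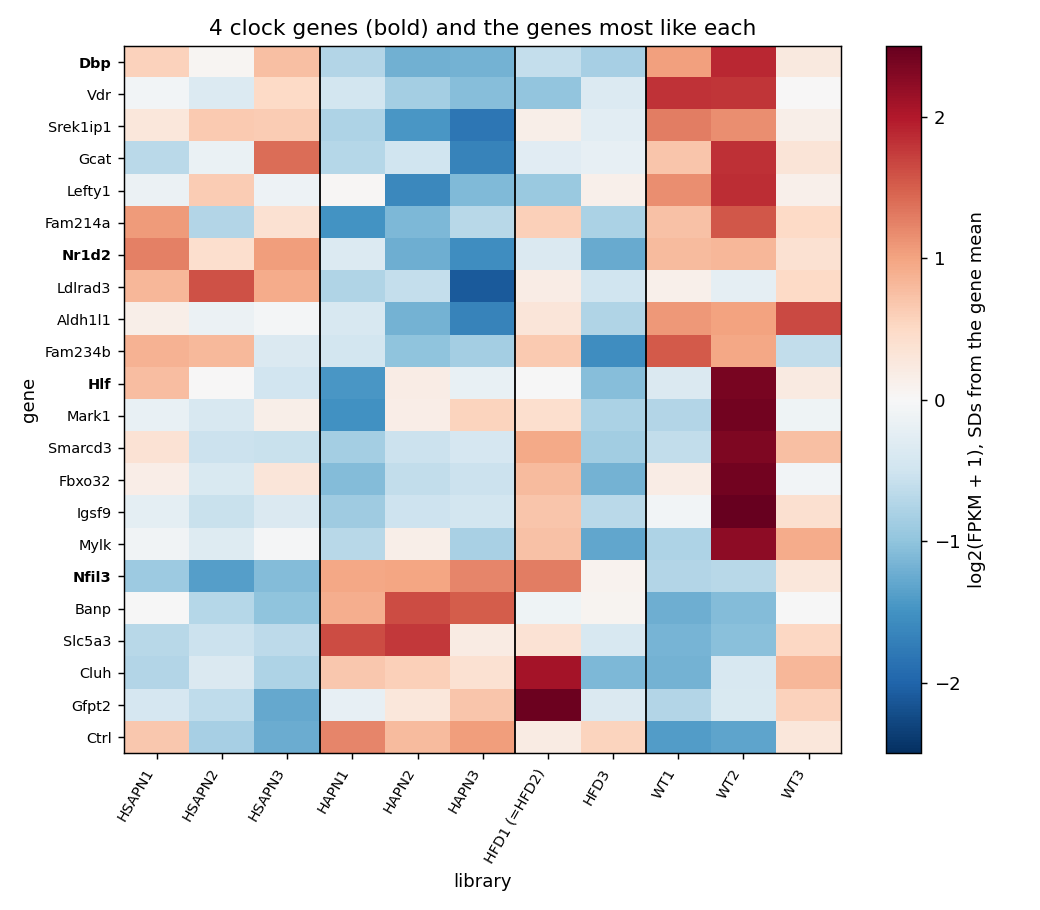
Level of Dbp, Nr1d2, Hlf and Nfil3 (bold) and of the 5 genes with the highest r for each, by library, as SDs of log2(FPKM + 1) from the mean of the gene over the 11 libraries; a gene like several members is drawn once. Dbp and Nr1d2 are low across HAPN and HFD, Nfil3 is high across HAPN, and Hlf with the genes below it is set apart by WT replicate 2.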

How the data were processed

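RNA of mouse aorta was sequenced by the submitters from directional libraries, per the labels' protocols. Per the submitters' processing notes, GRCm38 was the build, and DESeq 1.8.3 and featureCounts 1.5.0-p3 are listed without a stated use. No aligner, annotation release or strand setting is given, nor the rule that chose the 3534 listed rows. The deposited values were read as FPKM made by the authors. Exonic lengths were those of GENCODE M21 (GRCm38). The read total of each library was chosen to bring the largest share of values up to 20 reads within 0.1 of a whole read. At that total the share was 96.1 to 97.3%, which is a fitted value and no independent check. It does not tell FPKM from TPM, and the table holds 12.1 to 17.6% of the reads so implied. Reads given per gene are therefore approximate.

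From these values log2(FPKM + 1) was computed, 1 symbol listed 2 times was left out, and 1659 genes were fitted with limma-trend 3.58.1 (R 4.3.3) as 4 group means with 7 residual degrees of freedom, adjusted by Benjamini-Hochberg over all tested genes. The fit was tested on simulated data. Alternatives were the filter, pseudocounts of 0.1 and 0.5, median-ratio scaling, array weights, a replicate block, the identical files counted as 2 and each library left out. Named were the members, every analysed gene of the clock lists, and the 5 most and 5 least alike genes per member whose log2(FPKM + 1) averaged 1 or more, of which 1 gene is not reported here. The members and lists were chosen with earlier results of these data known. Python 3.11.15, pandas 2.3.3, NumPy 2.4.6 and matplotlib 3.10.9 were used.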

Additional observations from a re-analysis of the deposited data

How the results depend on the processing

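Of 24 differences of the 4 genes, with 276 alternative values, 8 values moved by at least the SD of their gene within groups. On the log2(FPKM + 1) scale that SD was 0.573 for Dbp, 0.418 for Hlf, 0.244 for Nfil3 and 0.245 for Nr1d2. In comparisons without HFD, the replicate block and the identical files counted as 2 could not change a difference, so those values were fixed. All 8 belonged to Nfil3 or Nr1d2, the genes with the lower SDs, in comparisons with HFD. Dbp and Hlf were not thereby steadier. Without WT replicate 2, Dbp in HSAPN against WT went from -0.66 to -0.19 and Hlf from -0.27 to 0.07. These shifts stayed within their wider SDs and were not counted. Median-ratio scaling gave 0.45 for Nfil3 and 0.15 for Nr1d2 in HAPN against HFD. Without HFD replicate 1, Nfil3 was -0.63 in HSAPN against HFD, 0.51 in HAPN against HFD and 0.25 in HFD against WT. With any other library left out it ran from -1.25 to -0.88, from -0.11 to 0.22 and from 0.46 to 0.87 in those comparisons. There were 10 sign changes, in 4 differences that were within 1 SE of 0. The stricter filter, at least 5 FPKM in 3 libraries, was passed by 3 of the 4 genes and not by Hlf.

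The count of genes past the limma threshold was unstable, and the cause was not tested. It was 2 in HSAPN against HAPN, 3 in HAPN against HFD and 0 in the other 4. With no filter it was 1 in HSAPN against HAPN, 2 in HSAPN against HFD, 5 in HAPN against HFD, 1 in HAPN against WT and 2 in HFD against WT. The stricter filter gave 6 in HAPN against WT. Median-ratio scaling gave 5 in HAPN against HFD and 17 in HAPN against WT. With only the groups compared in the fit it was 0 in HSAPN against HAPN and 0 in HAPN against HFD. The identical files counted as 2 libraries gave 2 in HSAPN against HFD, 10 in HAPN against HFD, 16 in HAPN against WT and 6 in HFD against WT. Array weights gave 79 in HSAPN against HAPN, 0 in HAPN against HFD, 395 in HSAPN against WT and 529 in HAPN against WT. With each library left out, counts ran from 0 to 3 in HSAPN against HAPN, 0 to 3 in HSAPN against HFD, 0 to 6 in HAPN against HFD, 0 to 164 in HSAPN against WT, 0 to 177 in HAPN against WT and 0 to 27 in HFD against WT. The 164, 177 and 27 are without WT replicate 3. Without HFD replicate 1 the count was 1 in HSAPN against HAPN, HSAPN against HFD, HAPN against HFD and HFD against WT.

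Whether replicate numbers pair the libraries cannot be settled from 3 libraries per group. Across HSAPN, HAPN and WT, deviations of differently numbered libraries had r from -0.585 to 0.473. Deviations of same-numbered libraries had r of 0.015, -0.191 and -0.535 between HSAPN and HAPN, 0.332, -0.218 and 0.007 between HSAPN and WT, and 0.318, 0.244 and 0.048 between HAPN and WT. With the replicate number as a block the count was 1 in HAPN against WT under either number for the identical files, 0 in HAPN against HFD with number 1, and 1 in HSAPN against HFD and in HFD against WT with number 2.

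Of the other 8 clock-list genes, array weights brought 2 past the threshold in HSAPN against WT and 3 in HAPN against WT, where 23.8% and 31.9% of all tested genes passed. With each library left out, 0 to 1 passed in HSAPN against WT and 0 to 3 in HAPN against WT. By Spearman rho, 4 of the 10 genes most alike were shared for Dbp, 3 for Hlf, 4 for Nfil3 and 6 for Nr1d2. Leaving out WT replicate 2 for these genes and for the correlations between members was chosen after seeing the data, and 5, 1, 6 and 8 were then shared.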
